A study of Mus musculus with 16 samples.

Results

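The 28 genes described here encode proteins of homologous recombination, the Fanconi pathway and mismatch repair. They were taken by symbol from the deposited table of protein-coding genes, which holds 21924 rows, and each symbol matched 1 row. All 28 passed the filter on low values, which kept 14841 genes with at least 1 read per 1000000 counted (counts per 1000000, CPM) in at least 2 libraries. The cells were mouse germline stem (GS) cells, self-renewing spermatogonia in culture that can rebuild spermatogenesis in a recipient testis. All were grown with GDNF and FGF2, the growth factors of these stem cells, above feeder fibroblasts from mouse embryos, and mRNA was sequenced in bulk from 16 libraries, 2 for each of 8 groups. Cells of the strain DBA/2, wild type, were compared at 20% and 1% oxygen. A line of mixed 129 x C57BL/6 strain was compared at 20% and 1% oxygen as Hif1a wild-type and as Hif1a KO, the latter treated with AxCANCre, an adenovirus that carries Cre, on the day of hypoxia. C57BL/6 cells, Top1mt wild type and Top1mt KO, were measured at 1% oxygen alone. Hif1a encodes a subunit of the main oxygen-sensitive transcription factor, and Top1mt a topoisomerase of mitochondria. Low oxygen was applied for 2 days according to the series text, although the names of the Hif1a libraries at 1% carry the mark 6d and those of the Top1mt libraries 2d, with no meaning given. Whether wild-type cells received a control virus, which part of Hif1a was deleted, the animals' ages and the number of clones behind each line are not given in the sources used here.

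Homologous recombination copies a broken DNA end from the sister chromatid. BRCA1 with its partner BARD1 promotes resection of the end, PALB2 links BRCA1 to BRCA2, and BRCA2 acts as the central mediator of repair at the resected end. RAD51B, RAD51C, RAD51D, XRCC2 and XRCC3 form complexes that assist this step, and their genes are called the mediator genes below. RAD54L and RAD54B are motor proteins that drive strand exchange, BLM is a helicase that resolves the joined molecules and EXO1 an exonuclease that resects ends and mismatches. The Fanconi core complex is a ubiquitin ligase whose catalytic subunit is FANCL. It modifies the FANCD2-FANCI pair at DNA crosslinks. In mismatch repair MSH6 and MSH3 form the partner subunits of the 2 mismatch-recognition dimers, and PMS1 and PMS2 are partners in the downstream MutL dimers. Most of these genes are transcribed as cells enter DNA replication, and loss of Fanconi or recombination genes depletes germ cells in mice.

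Depth ran from 11942104 to 25659895 reads, so that 1 read stood for 0.0390 to 0.0837 CPM and every member was measured above the level of single reads in every library. The targeted genes were read first as a check of the labels. Top1mt was at 32.8 and 34.8 CPM in Top1mt wild type and at 9.99 and 11 CPM in Top1mt KO. Hif1a was at 116 and 118 CPM in wild-type and 139 and 142 CPM in KO-labelled libraries at 20% oxygen, and at 251 and 251 against 618 and 593 CPM at 1%. This goes against the label, and since the deleted part is not known it checks neither the deletion nor its absence, so these are called the libraries labelled Hif1a KO. The 22 germ cell markers summed to between 2488 and 7507 CPM and the 24 feeder fibroblast markers to between 7234 and 64396 CPM. Both lists were read in every library. Of the 9 Sertoli and Leydig markers, Cyp17a1 was at 0 in 13 of 16 libraries, and Insl3 and Hsd3b1 in 8 each. The others were read in every library, Wt1 at 8.59 to 29.3 CPM, Sox9 at 6.70 to 19.9 CPM and Star at 3.82 to 6.20 CPM. Amh, Gata4 and Cyp11a1 were at 5.40 CPM or less. The 9 markers summed to at most 56.9 CPM and the 6 leukocyte markers to at most 24.4 CPM. In the Hif1a line the sample numbers in the library names ran from 9 to 12 at 20% oxygen and from 17 to 20 at 1%, and in DBA/2 they were 13 and 14 against 17 and 18. If these mark sequencing sets, set and oxygen cannot be told apart. In bulk RNA, fewer germ cells and less of a transcript per germ cell cannot be told apart either.

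The promoters of 5 members named in the results below are shown, 3 with and 2 without the E2F motif, the binding word of the factors that start replication genes, which was common in the set. RefSeq promoters (GRCm38.p6, 250 bases before to 50 after a start) were matched for 23 of 28 members, all but Rad51d, Fancd2, Exo1, Xrcc2 and Rad54b. They were searched on both strands for the E2F core in the spelling TTTGGCG, the spelling TTTCCCG, the spelling TTTGCCG and the spelling TTTCGCG. Sequences run 5′ to 3′ on the strand of the gene, and capitals mark a match, written as its reverse complement where it lies on the other strand. Bard1, Brca2 and Rad51c hold matches, while Brca1 and Rad54l hold none in this window.
Bard1, chr1:71102923-71103222, - strand: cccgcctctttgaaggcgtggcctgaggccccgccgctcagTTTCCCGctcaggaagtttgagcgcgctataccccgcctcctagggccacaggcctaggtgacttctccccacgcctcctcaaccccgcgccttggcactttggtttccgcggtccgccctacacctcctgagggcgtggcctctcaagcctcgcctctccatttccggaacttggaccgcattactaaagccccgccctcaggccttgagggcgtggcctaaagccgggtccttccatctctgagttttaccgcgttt
Brca2, chr5:150522371-150522670, + strand: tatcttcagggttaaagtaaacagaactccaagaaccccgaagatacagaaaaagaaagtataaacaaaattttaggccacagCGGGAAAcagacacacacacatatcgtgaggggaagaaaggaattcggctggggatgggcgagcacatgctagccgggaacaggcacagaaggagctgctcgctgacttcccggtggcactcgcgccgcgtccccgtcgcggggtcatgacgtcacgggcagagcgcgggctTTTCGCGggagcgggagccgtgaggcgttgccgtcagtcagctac
Rad51c, chr11:87404905-87405204, - strand: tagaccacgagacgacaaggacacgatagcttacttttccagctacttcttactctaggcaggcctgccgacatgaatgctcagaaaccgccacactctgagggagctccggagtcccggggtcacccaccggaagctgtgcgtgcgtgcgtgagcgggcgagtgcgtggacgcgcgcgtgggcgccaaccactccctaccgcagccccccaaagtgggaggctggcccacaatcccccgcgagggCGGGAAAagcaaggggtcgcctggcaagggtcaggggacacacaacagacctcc
Brca1, chr11:101551906-101552205, - strand: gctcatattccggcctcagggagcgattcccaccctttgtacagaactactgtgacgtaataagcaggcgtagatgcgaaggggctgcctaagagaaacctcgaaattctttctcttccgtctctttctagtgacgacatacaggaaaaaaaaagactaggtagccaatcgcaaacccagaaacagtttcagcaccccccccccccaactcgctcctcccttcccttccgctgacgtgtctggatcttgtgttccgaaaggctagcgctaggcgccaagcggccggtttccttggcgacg
Rad54l, chr4:116123640-116123939, - strand: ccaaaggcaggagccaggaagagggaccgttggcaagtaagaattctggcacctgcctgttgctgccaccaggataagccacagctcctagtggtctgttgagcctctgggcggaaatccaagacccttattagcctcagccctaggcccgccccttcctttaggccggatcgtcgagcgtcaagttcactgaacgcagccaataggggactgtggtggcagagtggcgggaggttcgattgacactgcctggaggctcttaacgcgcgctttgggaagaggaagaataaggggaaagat
An E2F core was found in the promoters of 9 of the 23 members (39.1%), Bard1, Brca2, Brip1, Fancg, Msh3, Msh6, Pms2, Rad51b and Rad51c, against 9.33% of 16522 genes of the deposited table. In Bard1 the match began at position -209 from the start, and in Brca2 matches began at -167 and at 5. The core of the hypoxia response element, ACGTG or GCGTG, which shares no spelling with the E2F core, was found in 14 of 23 members (60.9%) against 53.5% of all genes. These are letter matches and no measure of binding.

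Levels of different genes were compared as CPM per kilobase of exon in DBA/2 wild type at 20% oxygen. Msh6 was highest by far, at 95.0 and 96.9 CPM per kilobase in the 2 libraries. Brca1 followed at 22.6 and 23.4. Brca2 (16.2 and 17.7), Exo1 (16.3 and 17.1) and Fancd2 (16.5 and 16.9) came next and overlapped one another. At the low end stood Rad51d at 3.03 and 2.92, Fancc at 2.72 and 2.83, and Rad51b at 0.805 and 0.761 CPM per kilobase. The remaining 20 members lay between 4.67 and 14.2 CPM per kilobase by group mean, with many neighbours inside each other's spread. Rad54b shares 35.8% of its exon bases with Fsbp on the same strand, and 6 further members (Rad54l, Fanca, Fancc, Fancf, Fanci and Fancl) share over 10% with a gene on the opposite strand. The strand setting of the counting was not stated, so reads of these overlaps cannot be assigned with certainty.

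Across the 8 groups most members moved as a block and Rad51d did not. Over the 378 pairs of members, the median Pearson r of log2(CPM + 1) across 8 group means was 0.86, and it was 0.72 over 7 groups without the libraries labelled Hif1a KO at 1%. For Rad51d the median r with the other members was -0.52 over 8 groups and -0.65 over 7. For Rad51b it was 0.41 and -0.01. The groups share feeder content and scaling, so these r are a description. Both libraries labelled Hif1a KO at 1% stood below all 14 others in 21 of 28 members, and 36.6% of all genes showed the same.

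**Figure D1:**
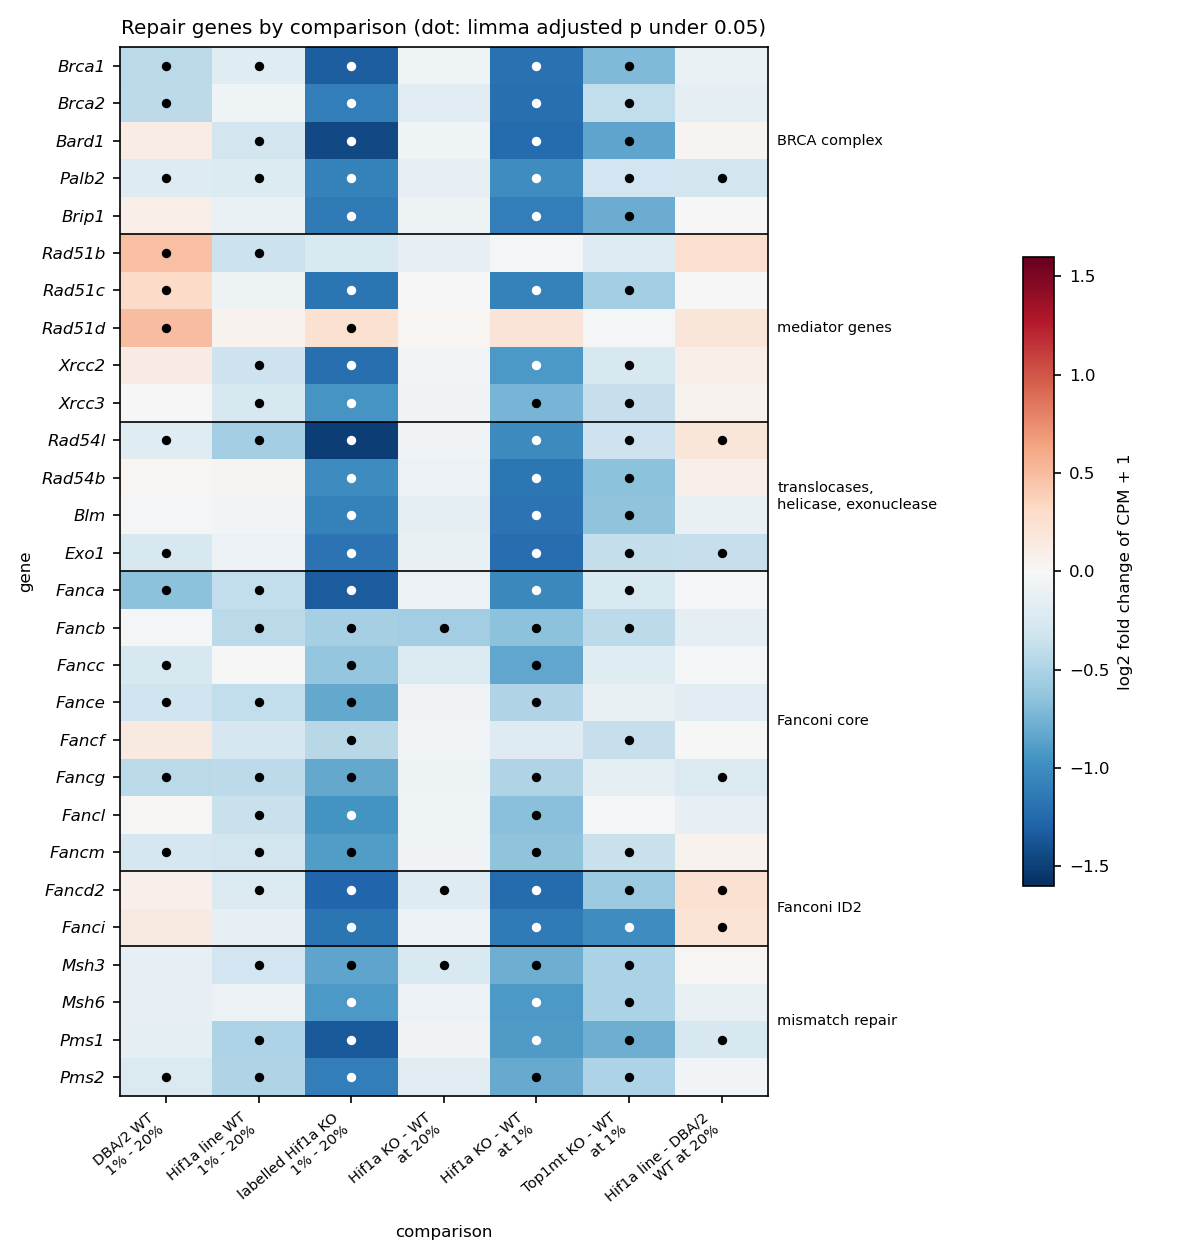
Log2 fold change of CPM + 1 (colour) of 28 repair genes (rows, by role) in 7 comparisons (columns), 2 libraries a group; a dot marks an adjusted p under 0.05 in limma. In the 2 columns that share the libraries labelled Hif1a KO at 1%, 26 and 25 members fell on the CPM scale, against 54.7% and 49.1% of all genes. Under germ cell marker scaling 10 and 2 fell in these columns, against 6.47% and 0.966% of all genes. In the Top1mt column all 28 values are negative on the CPM scale, 22 of them called, against 33.2% of all genes. Rad51d has no called fall in any column.

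The comparison of 1% with 20% oxygen in DBA/2 wild type asks how the cells at low oxygen differed. Of 28 members, 11 fell, against 25.5% of all genes tested, and 3 rose, against 31.8%. Calls here and below are by limma on log2(CPM + 1), Benjamini-Hochberg adjusted over 14841 genes, at 0.05. The members' median log2 fold change was -0.08, beside 0.04 over all genes, and it was 0.10 beside 0.19 when libraries were scaled to equal germ cell markers. On the CPM scale the 3 that rose were all mediator genes, and no mediator gene fell. Under germ cell marker scaling 11 members rose, against 44.9% of all genes, and the rises were not confined to mediator genes. Of the BRCA complex 3 of 5 fell (2 fell and 2 rose under germ cell marker scaling), and of the Fanconi core 5 of 8 (2 fell and 1 rose).

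Fanca, a scaffold subunit of the Fanconi core, stood at 90.6 and 96.3 CPM at 20% and at 55.1 and 63.4 CPM at 1% oxygen. It fell by 0.65 ± 0.07 (log2, SE, adjusted p = 2.5e-07). Fancg, which binds FANCA in the core, went from 52.8 and 54.7 to 37.8 and 41.8 CPM. The groups of both genes lay apart, which was a condition for printing their values. Fance, the subunit that binds FANCD2, went from 36.5 and 37.9 to 28.8 and 30.6 CPM, and Fancm, the DNA translocase that anchors the core, from 59.4 and 66.3 to 52.7 and 51.0 CPM. Fancg fell by 0.43 ± 0.07, Fance by 0.32 ± 0.09 and Fancm by 0.27 ± 0.06 (adjusted p = 4.2e-05, 0.0066 and 0.0010). The call of Fance was lost without DBA/2 1% replicate 1 (-0.27), and the calls of Fance and Fancm under germ cell marker scaling.

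Brca1 fell from 192 and 200 to 142 and 150 CPM, by 0.43 ± 0.05 (adjusted p = 1.3e-06). Brca2 fell from 221 and 242 to 171 and 174 CPM, by 0.42 ± 0.07 (adjusted p = 4.3e-05). Their partners did not follow in step. Bard1 stood at 60.3 and 61.9 against 67.7 and 64.8 CPM and Brip1, the helicase that binds BRCA1, at 49.9 and 53.9 against 56.9 and 55.2 CPM, without a call (adjusted p = 0.19 and 0.21). Palb2 was the third of this complex to fall, at -0.21.

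Among the mediator genes, Rad51d rose from 11.3 and 10.8 to 16.3 and 15.8 CPM, by 0.50 ± 0.10 on the log2 scale (adjusted p = 4.4e-04). Rad51c rose from 40.8 and 39.4 to 50.7 and 48.8 CPM, by 0.31 ± 0.08 (adjusted p = 0.0020). Rad51b rose from 3.03 and 2.86 to 4.04 and 5.03 CPM, by 0.48 ± 0.14 (adjusted p = 0.0057), and this call was lost without DBA/2 1% replicate 2 (0.36). Xrcc2 and Xrcc3 were not called, at 0.13 and -0.01. In CPM, the 5 mediator genes together amounted to 16.2 and 15.1 per 100 CPM of the BRCA complex at 20% oxygen and to 23.1 and 22.6 at 1%. That ratio does not depend on library scaling, though it can depend on the mix of feeder and germ cell RNA.

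The other members that fell in DBA/2 were Exo1 (-0.26), Fancc (-0.25), Pms2 (-0.23) and Rad54l (-0.20), besides Palb2. Fancd2 and Fanci, the target of the core, were not called, at 0.08 and 0.14, nor were Msh3 and Msh6, at -0.14 and -0.13. Beside these values, the feeder markers summed to 9084 and 7234 CPM at 20% and 8429 and 7543 CPM at 1%, overlapping. Among the 24 feeder markers 4 rose and 12 fell, with values from -2.64 to 2.05. The 28 cell cycle markers summed to 4564 and 4737 CPM at 20% and to 4783 and 4797 CPM at 1%, with 11 rising and 12 falling. The germ cell markers went from 7258 and 7507 to 6500 and 6523 CPM, with 3 of 22 rising and 14 falling. The part of these lists in the result was not tested. The count of members that fell was 7 without DBA/2 1% replicate 2, and 7 without DBA/2 20% replicate 2. Under germ cell marker scaling 4 fell, Fanca, Fancg, Brca1 and Brca2, against 12.6% of all genes, and 11 rose, against 44.9%.

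**Figure D2:**
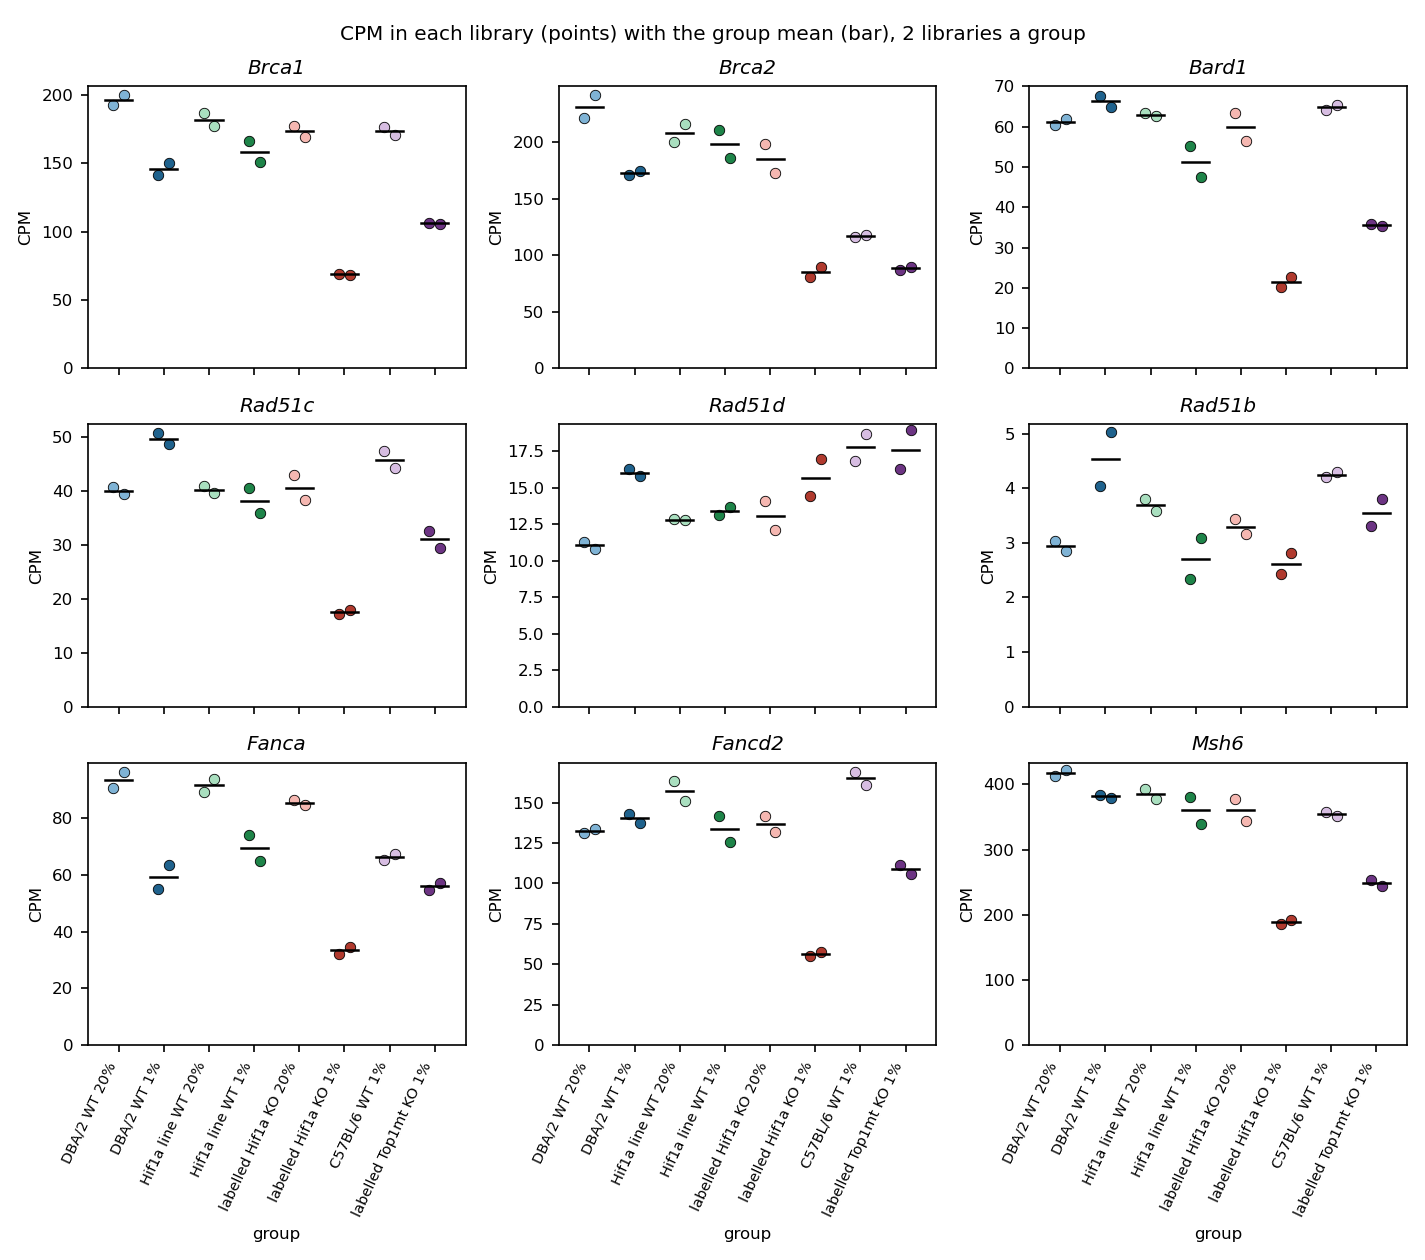
CPM (y axes, from 0) of 9 repair genes in each library (points) with the group mean (bar), 2 libraries in each of 8 groups. Bard1, Rad51c, Fancd2 and Msh6 are lowest in the libraries labelled Hif1a KO at 1%, while Rad51d lies between 10.8 and 18.9 CPM throughout and is not low there.

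The Hif1a line in its wild-type form gives the same oxygen contrast in another strain background. Here 17 of 28 members fell, against 34.6% of all genes, and none rose (limma, 0 also at an unadjusted p under 0.05, by edgeR and by DESeq2), against 18.4%. The members' median was -0.27 beside -0.09 over all genes, and -0.17 beside 0.00 under germ cell marker scaling. Of the mismatch repair genes 3 of 4 fell, of the Fanconi core 6 of 8, of the mediator genes 3 of 5 and of the BRCA complex 3 of 5. With median-of-ratios scaling, with germ cell marker scaling and with edgeR, 1 of 5 mediator genes and 1 of 5 of the BRCA complex fell. Of all 28 members 12 fell in each of these settings, against 24.8%, 20.9% and 24.5% of all genes in that order. The replicates at 1% were the least alike of any group, with a chi-square per gene of 7.60. Without replicate 2 of this group 10 members fell.

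Rad54l, the motor protein of strand exchange, had the largest fall, from 96.4 and 89.2 CPM at 20% to 64.8 and 61.6 CPM at 1%, or 0.55 ± 0.06 lower (log2, adjusted p = 1.0e-07). Pms1 went from 32.3 and 34.4 to 25.1 and 21.6 CPM and Pms2 from 61.6 and 59.1 to 44.7 and 41.0 CPM. Pms1 fell by 0.50 ± 0.09 and Pms2 by 0.48 ± 0.07 (adjusted p = 6.7e-05 and 5.6e-06). The libraries of the 2 oxygen levels were apart for all 3 genes, which was a condition for printing their values. In the Fanconi core, Fanca fell from 89.2 and 93.9 to 74.2 and 64.9 CPM (-0.39 ± 0.07, adjusted p = 1.2e-04) and Fancg from 48.7 and 43.0 to 34.3 and 33.8 CPM (-0.42 ± 0.07, adjusted p = 6.4e-05). Fancb, another core subunit, encoded on the X chromosome, fell from 12.7 and 12.2 to 8.89 and 9.01 CPM (-0.44 ± 0.11, adjusted p = 0.0031). Brca2 was not called, at 201 and 217 against 211 and 186 CPM, nor was Rad51d, at 12.9 and 12.8 against 13.1 and 13.7 CPM. Beside these values the feeder markers rose from 11660 and 12626 to 29215 and 37058 CPM in sum, and germ cell markers went from 6000 and 5922 to 5769 and 5357 CPM. Their part in the result was not tested.

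The difference between the oxygen responses of the 2 wild-type lines was tested directly, as the Hif1a line minus DBA/2. Strain, any difference in the time at low oxygen and any sequencing set cannot be told apart in it. Of 28 members 12 had a lower response in the Hif1a line, against 30.9% of all genes, and 3 a higher one, against 15.1%, with a median of -0.23 beside -0.13 over all genes (-0.30 beside -0.19 under germ cell marker scaling). Rad51b differed most, at -0.83 ± 0.20 (adjusted p = 0.0020), with 3.80 and 3.59 CPM at 20% and 2.33 and 3.09 CPM at 1% in the Hif1a line where DBA/2 had risen. Of the other mediator genes, Xrcc2 differed by -0.46 ± 0.13 and Rad51d by -0.44 ± 0.15 (adjusted p = 0.0053 and 0.020). Bard1 differed by -0.41 ± 0.10 (adjusted p = 0.0034), with 63.3 and 62.5 against 55.2 and 47.5 CPM in the Hif1a line. Fancf and Fancb differed by -0.42 ± 0.17 and -0.41 ± 0.16 (adjusted p = 0.046 and 0.040). On the other side Brca2 differed by 0.35 ± 0.10, Fanca by 0.26 ± 0.10 and Brca1 by 0.23 ± 0.07 (adjusted p = 0.0075, 0.044 and 0.018), all 3 having fallen further in DBA/2.

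With median-of-ratios scaling, which gave medians of -0.11 over members and -0.01 over all genes, 4 members were lower and 5 higher, against 19.8% and 21.1% of all genes, and DESeq2 on recovered reads called 2 lower and 4 higher. Under those settings the calls of Rad51d, Fancb and Fancf were lost (-0.32, -0.30 and -0.31 with median-of-ratios scaling), as was that of Xrcc2 with DESeq2. The number lower was 7 when any 1 of DBA/2 1% replicate 1, DBA/2 20% replicate 1, Hif1a wild-type 1% replicate 2 and Hif1a wild-type 20% replicate 1 was left out. The number higher was 1 without DBA/2 1% replicate 1, DBA/2 20% replicate 2 or Hif1a wild-type 20% replicate 2. The calls of Fancb, Fancf, Fanca and Brca1 were each lost in at least 4 of the 8 fits that left out a library, and that of Rad51d in 3. The response of Rad51b kept its call in each of those fits.

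The 2 wild-type lines were also compared at 20% oxygen. Strain, culture and any sequencing set cannot be told apart in this comparison. In the Hif1a line 4 members were lower than in DBA/2, against 22.6% of all genes, and 3 higher, against 26.4%. Exo1 was lower, at 110 and 107 against 138 and 144 CPM (-0.37 ± 0.05, adjusted p = 1.0e-05). Palb2 was lower too, at 49.8 and 50.7 against 60.4 and 62.8 CPM (-0.29 ± 0.07, adjusted p = 0.0031). Pms1 at 32.3 and 34.4 against 38.2 and 42.3 CPM, and Fancg at 48.7 and 43.0 against 52.8 and 54.7 CPM, differed by -0.26 ± 0.09 and -0.23 ± 0.07 (adjusted p = 0.016 and 0.012). Both proteins of the FANCD2-FANCI pair had higher transcripts. Fancd2 was at 163 and 151 against 131 and 134 CPM (0.24 ± 0.06, adjusted p = 0.0025), and Fanci at 69.2 and 61.5 against 54.2 and 57.4 CPM (0.22 ± 0.07, adjusted p = 0.016). Rad54l was at 96.4 and 89.2 against 79.6 and 82.7 CPM (0.19 ± 0.06, adjusted p = 0.0075). The number higher was 0 without Hif1a wild-type 20% replicate 1 and 1 without DBA/2 20% replicate 1, and the number lower was 2 without DBA/2 20% replicate 2. Of the 22 germ cell markers 17 were lower and 1 higher in the Hif1a line. Of the 24 feeder markers 16 were higher and 1 lower, with sums of 11660 and 12626 CPM against 9084 and 7234 CPM in DBA/2. The part of these lists in the result was not tested. With germ cell marker scaling 19 members were higher, against 57.3% of all genes, and 0 lower, against 6.07%, with medians of 0.27 over members and 0.29 over all genes.

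Few members differed by the label Hif1a KO at 20% oxygen. Of 28 members 3 were lower than in wild-type, against 9.55% of all genes, and none higher (limma, 0 also at an unadjusted p under 0.05, by edgeR and by DESeq2), against 12.9%. The median was -0.09 beside -0.03 over all genes, and 0.12 beside 0.16 under germ cell marker scaling. Fancb was at 8.37 and 7.90 CPM against 12.7 and 12.2 CPM, a fall of 0.56 ± 0.11 (adjusted p = 0.0016), and it remained called under germ cell marker scaling (-0.36). Msh3, which with its partner recognises larger insertion loops, was at 52.3 and 48.5 against 61.9 and 57.7 CPM (-0.24 ± 0.07, adjusted p = 0.021). Fancd2 was at 142 and 132 against 163 and 151 CPM (-0.20 ± 0.06, adjusted p = 0.022). The calls of Msh3 and Fancd2 were lost without Hif1a KO 20% replicate 2 (-0.19 and -0.15) and without Hif1a wild-type 20% replicate 1 (-0.19 and -0.14), and both were lost under germ cell marker scaling, with Msh3 at -0.036 and Fancd2 at 0.0083. Without Hif1a KO 20% replicate 1, 5 members fell, and 1 fell without Hif1a KO 20% replicate 2 or Hif1a wild-type 20% replicate 1. Feeder markers summed to 16672 and 19694 CPM in the labelled libraries and 11660 and 12626 CPM in wild-type, and their part in the result was not tested.

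In the libraries labelled Hif1a KO, nearly the whole set stood lower at 1% than at 20% oxygen on the CPM scale. Of 28 members 26 fell, against 54.7% of all genes, and 16 fell at least 2-fold, against 9.47%. Rad51d alone was called as a rise, against 25.2%, and Rad51b was not called (-0.25, adjusted p = 0.11). The members' median was -1.08 beside -0.29 over all genes. With germ cell marker scaling the members' median was -0.10 beside 0.62 over all genes, with 10 falls and 6 rises, against 6.47% and 73.9% of all genes. Median-of-ratios scaling gave medians of -0.73 over members and 0.02 over all genes, with 24 falls and 1 rise, against 35.3% and 40.1%.

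The largest fall was that of Rad54l, from 90.0 and 88.1 CPM at 20% to 30.2 and 31.3 CPM at 1%, by 1.50 ± 0.06 on the log2 scale (adjusted p = 9.3e-15). Bard1 fell from 63.5 and 56.5 to 20.1 and 22.6 CPM, by 1.45 ± 0.07 (adjusted p = 7.8e-13), and its partner Brca1 from 178 and 170 to 69.1 and 68.6 CPM, by 1.32 ± 0.05 (adjusted p = 3.4e-14). For these 3 genes, and for the 3 that follow, both libraries at 1% lay more than 2-fold below the lower library at 20%. Fanca fell from 86.3 and 84.6 to 32.0 and 34.7 CPM (-1.33 ± 0.07, adjusted p = 1.8e-12). Fancd2, the ubiquitinated target of the core, fell from 142 and 132 to 55.1 and 57.3 CPM (-1.26 ± 0.06, adjusted p = 3.6e-13). Pms1 fell from 33.2 and 30.8 to 11.5 and 12.5 CPM (-1.34 ± 0.09, adjusted p = 2.0e-11). All 6 were also called lower with germ cell marker scaling, at -0.52 for Rad54l, -0.47 for Bard1, -0.39 for Pms1, -0.34 for Fanca, -0.32 for Brca1 and -0.27 for Fancd2.

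The falls were of unequal size. By median, the FANCD2-FANCI pair (-1.22), the BRCA complex (-1.13) and the translocases, helicase and exonuclease (-1.13) were lowest, with mismatch repair at -1.02, the mediator genes at -0.95 and the Fanconi core at -0.82. Within the core, Fanca stood at -1.33 while Fancf, Fancb and Fancc stood at -0.44, -0.53 and -0.61. With germ cell marker scaling Fancf, Fancb and Fancc were called as higher (0.46, 0.36 and 0.34), as were Fancg, Rad51b and Rad51d. Rad51d stood at 14.1 and 12.1 CPM at 20% and 14.4 and 17 CPM at 1%. Its rise of 0.24 ± 0.10 (adjusted p = 0.039) was small, and the call was lost without KO 1% replicate 2 (0.13), without KO 20% replicate 2 (0.14), with no filter on low values and in a fit of only the groups compared. It was 0.59 with median-of-ratios scaling and 1.21 with germ cell marker scaling.

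Values of other lists moved along. Feeder markers went from 16672 and 19694 CPM at 20% to 64396 and 62806 CPM at 1% in sum, with 21 of 24 called higher and 1 lower. Germ cell markers went from 5335 and 4978 to 2488 and 2630 CPM, with 22 of 22 called lower. Cell cycle markers went from 4608 and 4435 to 2143 and 2227 CPM, with 28 of 28 called lower. The 28 repair genes went from 1946 and 1809 to 853 and 893 CPM. Per 100 CPM of cell cycle markers the repair genes amounted to 42.2 and 40.8 at 20% and to 39.8 and 40.1 at 1%. Per 100 CPM of germ cell markers they amounted to 36.5 and 36.3 against 34.3 and 34.0. The part of feeder content in the falls was not tested.

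**Figure D3:**
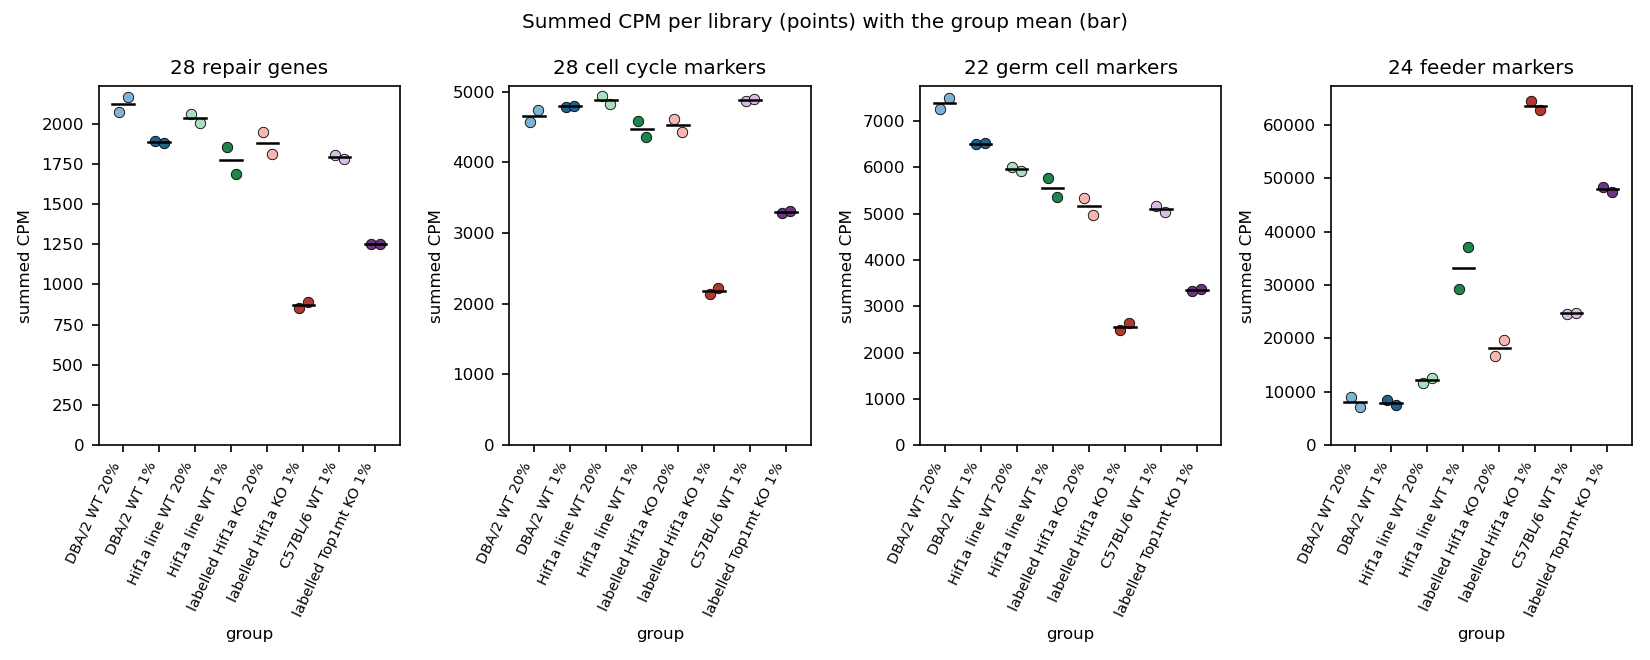
Summed CPM (y axes, from 0) of the 28 repair genes, 28 cell cycle markers, 22 germ cell markers and 24 feeder markers in each library (points) with the group mean (bar), 2 libraries in each of 8 groups. The first 3 sums are lowest and the feeder sum highest in the libraries labelled Hif1a KO at 1%, where the repair genes sum to 853 and 893 CPM and the feeder markers to 64396 and 62806 CPM.

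Against wild-type at 1% oxygen, in a comparison that shares the labelled libraries at 1% with the preceding one, 25 of 28 members were lower, against 49.1% of all genes, and 12 at least 2-fold lower, against 5.07%. None was higher by limma, also at an unadjusted p under 0.05, against 28.3%, while edgeR and DESeq2 each called 1 higher. The median was -0.92 beside -0.21 over all genes, and it turned to 0.14, beside 0.79 over all genes, with germ cell marker scaling, where 2 were lower and 12 higher, against 0.966% and 82.5% of all genes. With median-of-ratios scaling the medians were -0.65 and 0.03. Fancd2 was at 55.1 and 57.3 CPM against 142 and 125 CPM, and Bard1 at 20.1 and 22.6 against 55.2 and 47.5 CPM. Both were lower by 1.23 (SE 0.06 and 0.07, adjusted p = 2.0e-12 and 1.7e-11), and they were the 2 that remained called under germ cell marker scaling, at -0.12 and -0.14. Exo1, at 43.9 and 42.6 against 106 and 97.4 CPM, and Brca2, at 80.5 and 89.9 against 211 and 186 CPM, were lower by 1.22 ± 0.05 and 1.21 ± 0.07 (adjusted p = 6.3e-13 and 1.2e-11). Brca1, at 69.1 and 68.6 against 167 and 151 CPM, and Blm, at 33.2 and 34.7 against 82.3 and 74.1 CPM, were lower by 1.19 ± 0.05 and 1.18 ± 0.07 (adjusted p = 7.1e-13 and 1.5e-11). The calls of Exo1, Brca2, Brca1 and Blm were lost with germ cell marker scaling. The 3 members without a call were Fancf (-0.21), Rad51b (-0.03) and Rad51d (0.21, adjusted p = 0.073). Feeder markers summed to 64396 and 62806 CPM in the labelled libraries and 29215 and 37058 CPM in wild-type, and their part in the result was not tested.

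The interaction asks whether the response to oxygen differed between the labels. It was more negative in the labelled libraries in 24 of 28 members, against 39.0% of all genes, and more positive in none by limma, also at an unadjusted p under 0.05, against 19%. EdgeR and DESeq2 each called 1 more positive. The median was -0.86 beside -0.17 over all genes, and it was 0.01, beside 0.65 over all genes, under germ cell marker scaling, where 3 were more negative and 9 more positive, against 0.506% and 74.5% of all genes. With median-of-ratios scaling the medians were -0.60 and 0.07. Bard1 had the largest interaction at -1.16 ± 0.10, followed by Brca1 at -1.12 ± 0.07, Exo1 at -1.09 ± 0.07 and Rad51c at -1.09 ± 0.11 (adjusted p = 5.5e-08, 5.0e-09, 5.3e-09 and 1.6e-07). Rad54b at -1.05 ± 0.12 and Brca2 at -1.04 ± 0.10 came next (adjusted p = 5.5e-07 and 1.1e-07). Bard1, Brca1 and Exo1 stayed called with germ cell marker scaling, at -0.28, -0.22 and -0.20, while Rad51c, Rad54b and Brca2 did not. Rad51c stood at 43.0 and 38.4 CPM in labelled libraries at 20% and 17.2 and 18 CPM at 1%, while in wild-type it stood at 40.9 and 39.7 and at 40.5 and 36.0 CPM. Rad54b stood at 39.1 and 33.2 and at 16.3 and 18.6 CPM in the labelled libraries, and at 39.3 and 37.9 and at 40.4 and 39.4 CPM in wild-type. Fancf, Fancb, Rad51b and Rad51d were the 4 members without a call.

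**Figure D4:**
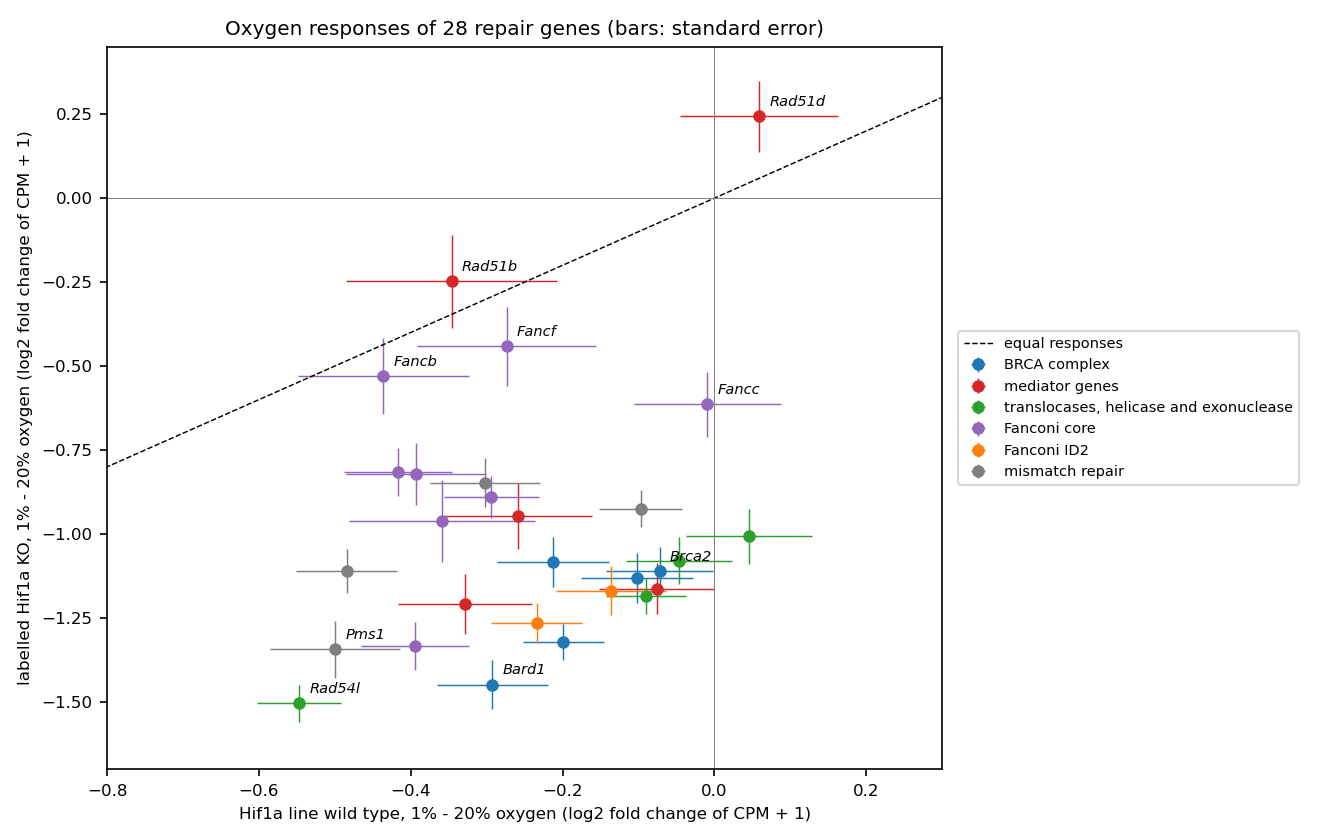
Oxygen response (log2 fold change of CPM + 1, 1% minus 20%) of 28 repair genes in the Hif1a line wild type (x) and in the libraries labelled Hif1a KO (y), coloured by role, with standard errors as bars and a dashed line of equal responses. On this scale 24 members lie below the line with a called difference, from Bard1 at -1.16 upward, against 39.0% of all genes. Under germ cell marker scaling 3 are called below and 9 above, against 0.506% and 74.5% of all genes. Rad51d lies above 0 on both axes.

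The Top1mt comparison set KO cells beside wild-type cells of the same strain, at 1% oxygen alone. Whether both came from the same culture line is not given, so genotype and culture cannot be told apart. Here 22 of 28 members were lower in the KO, against 33.2% of all genes. None was higher (limma, 0 also at an unadjusted p under 0.05, by edgeR and by DESeq2), against 25.2%. The median was -0.38 beside -0.04 over all genes, and it turned to 0.19, beside 0.51 over all genes, with germ cell marker scaling, where 4 were lower and 12 higher, against 4.32% and 76.3% of all genes. The FANCD2-FANCI pair and the BRCA complex had the lowest medians (-0.80 and -0.71) and the mediator genes and the Fanconi core the highest (-0.26 and -0.22). Fanci stood at 37.8 and 40.7 CPM in the KO against 80.1 and 78.5 CPM in wild type, lower by 1.00 ± 0.07 (adjusted p = 9.1e-10). Bard1 stood at 35.9 and 35.4 against 64.1 and 65.5 CPM (-0.84 ± 0.07, adjusted p = 1.1e-08). Brip1 stood at 32.0 and 38.2 against 60.0 and 62.8 CPM (-0.80 ± 0.07, adjusted p = 2.5e-08). Pms1 stood at 14.8 and 13.8 against 25.8 and 24.9 CPM (-0.79 ± 0.09, adjusted p = 2.0e-07). These 4 were the ones still called lower with germ cell marker scaling, at -0.40, -0.25, -0.20 and -0.21. Brca1 at 107 and 106 against 177 and 171 CPM, and Rad54b at 25.6 and 23.6 against 38.4 and 40.6 CPM, fell by 0.71 ± 0.05 and 0.66 ± 0.08 (adjusted p = 1.5e-09 and 1.3e-06), but not with that scaling.

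The 6 members not called in the Top1mt comparison were Rad51b, Rad51d, Fancc, Fancg, Fance and Fancl, between -0.21 and -0.01. Rad51d was at 16.3 and 18.9 CPM against 16.9 and 18.7 CPM in wild type, overlapping. Fancl, the catalytic subunit of the core, was at 8.21 and 9.47 against 10.1 and 7.93 CPM, overlapping as well. Feeder markers summed to 48356 and 47397 CPM in the KO and to 24626 and 24799 CPM in wild type, and germ cell markers to 3322 and 3370 against 5161 and 5043 CPM. Cell cycle markers summed to 3285 and 3311 against 4868 and 4893 CPM. Per 100 CPM of cell cycle markers the repair genes amounted to 38.0 and 37.9 in the KO and to 37.0 and 36.4 in wild type. The part of these sums in the result was not tested.

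Read across all groups, the balance between the mediator genes and the BRCA complex is independent of library scaling, though it can depend on the mix of feeder and germ cell RNA. In the Hif1a line wild type the 2 oxygen levels overlapped, at 18.2 and 17.6 CPM of mediator genes per 100 CPM of BRCA complex at 20% and 17.5 and 17.9 at 1%. In the labelled libraries it was 19.1 and 19 at 20% and 24.1 and 25.2 at 1%. The 5 mediator genes did not share this shift. Between these oxygen levels Rad51c, Xrcc2 and Xrcc3 stood at -1.16, -1.21 and -0.95 (log2), beside a BRCA complex median of -1.13. Rad51b stood at -0.25 and Rad51d at 0.24. In the Top1mt comparison it was 21.9 and 21.8 in wild type and 26.6 and 25.6 in the KO. Mean feeder marker sums at 20% and 1% oxygen were 18183 and 63601 CPM in the labelled libraries. They were 12143 and 33136 CPM in the Hif1a line wild type and 8159 and 7986 CPM in DBA/2. In Top1mt wild type and KO they were 24712 and 47876 CPM. The part of feeder content in this ratio was not tested. The ratio was computed after earlier results were known and has no test here. Brca2 stood at 116 and 118 CPM in Top1mt wild type, at 87.4 and 89.9 CPM in Top1mt KO and at 80.5 and 89.9 CPM in the libraries labelled Hif1a KO at 1%, so that by CPM the Top1mt KO and these labelled libraries overlapped. In the 10 other libraries it lay between 171 and 242 CPM. Per 100 CPM of Brca1, Brca2 amounted to 65.5 and 69.0 CPM in Top1mt wild type and 82.0 and 84.9 in Top1mt KO, against 102 to 131 in the 12 other libraries. Strain and culture differ together here, and the difference was not tested.

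**Figure D5:**
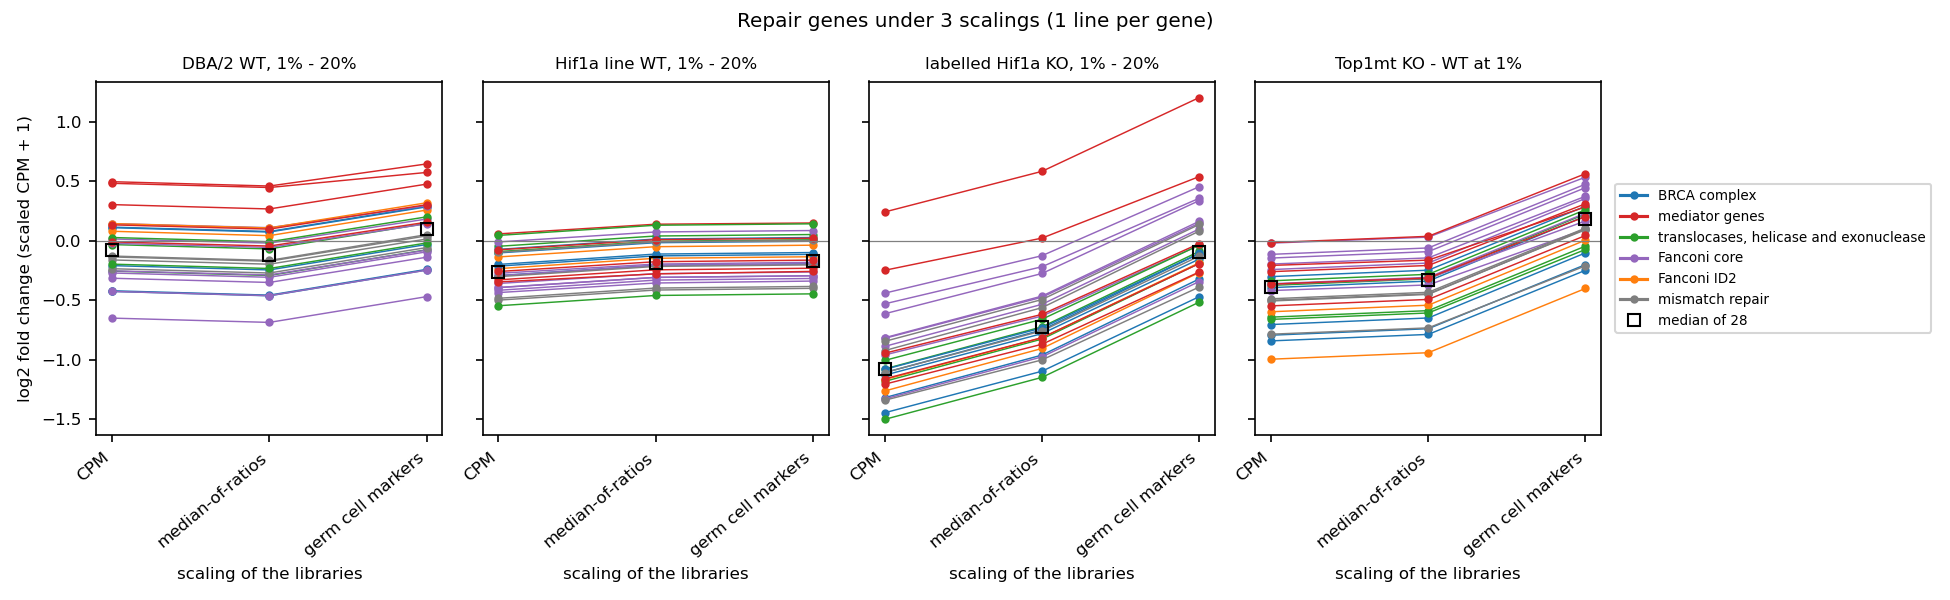
Log2 fold change (y) of each of 28 repair genes (lines, coloured by role) in 4 comparisons (panels) under 3 scalings of the libraries (x): CPM, median-of-ratios, and equal germ cell markers; squares mark the median of 28. In the labelled Hif1a KO panel the median is -1.08 on the CPM scale and -0.10 with germ cell markers, and in the Top1mt panel it turns from -0.38 to 0.19. The medians over all genes, given in the text, are higher than each of these values.

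Of 42 further genes of the same pathways (resection and replication protein A genes, structure-specific nucleases, accessory Fanconi proteins and checkpoint kinases), 11 rose and 9 fell at low oxygen in DBA/2, against 31.8% and 25.5% of all genes. In the Hif1a line wild type 1 rose and 23 fell, against 18.4% and 34.6%. In the libraries labelled Hif1a KO 0 rose and 39 fell, against 25.2% and 54.7%. The median was -0.72 and turned to 0.28 with germ cell marker scaling, below the median over all genes given above. With that scaling 25 partners rose and 6 fell, against 73.9% and 6.47% of all genes. Against wild-type, 1 was higher and 3 lower at 20% oxygen, against 12.9% and 9.55%, and 2 were higher and 36 lower at 1%, against 28.3% and 49.1%. In the Top1mt comparison 2 were higher and 27 lower, against 25.2% and 33.2%. The median was -0.30 and turned to 0.30 with germ cell marker scaling, again below the median over all genes given above. With that scaling 28 partners were higher and 1 lower, against 76.3% and 4.32% of all genes. On the CPM scale the partners' medians were nearer 0 than those of the 28 members in each of these oxygen and label comparisons except at 20%, where both were -0.09. The difference between the lists was not tested.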

How the data were processed

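Total RNA was sequenced as 16 stranded mRNA libraries, per the labels' protocols. The authors deposited 1 table of CPM (reads of a gene per 1000000 reads counted) for 21924 protein-coding genes. Per the submitters' processing notes, the tools were STAR 2.6.0c, cutadapt 1.16, HTSeq 0.11.2 and DESeq2 1.22.2 and the build mm10, with no roles given. Annotation, strand setting and filters were not stated. All values were whole multiples of 1 read within 0.01, so reads were recovered.

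The 14841 genes that reached 1 CPM in 2 or more libraries were fitted as log2(CPM + 1) with limma 3.58.1 in R 4.3.3, with 1 mean per group over all 16 libraries, a trended empirical Bayes step and no replicate block. A fold change on this scale understates changes of low genes. P-values were Benjamini-Hochberg adjusted over all genes and called at 0.05. The fits were tested on simulated data. Alternatives were a pseudocount of 0.5, no filter, only the groups compared, median-of-ratios scaling, scaling to an equal sum of 22 germ cell markers, edgeR 4.0.16 and DESeq2 1.42.0 on recovered reads, a replicate block and leaving out each library. Germ cell marker scaling takes the marker sum per germ cell as constant, which was not tested. On the CPM scale the markers changed unequally, from -1.58 to 0.49 (log2) with oxygen in DBA/2 and from -2.32 to -0.10 in the Top1mt comparison. Calls kept or lost under this scaling depend on that choice. Nothing in the labels says that replicates were separate cultures or animals, so p-values measure the spread between libraries, which may be technical.

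Members, lists and tests were chosen with earlier results of these data known. Values in every library are given for members called at 0.05 whose libraries do not overlap and whose mean is at least 1 CPM, for up to 6 largest rises and 6 largest falls a comparison, and overlap was not asked of differences of responses. Members named outside this rule (such as Bard1 and Brip1 in DBA/2, Brca2 and Rad51d in the Hif1a line, Fancl in the Top1mt comparison) were chosen after their values were seen. The comparisons share libraries. Gene coordinates and exon lengths come from the GRCm38 annotation.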

Additional observations from a re-analysis of the deposited data

Results flagged for a closer look

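The response to 1% oxygen differed between the libraries labelled Hif1a KO and wild-type in 24 of the 28 repair genes, by a test of the difference itself (limma interaction, log2 scale, adjusted p under the threshold of 0.05). All 24 were more negative in the labelled libraries, against 39.0% of all genes, and none was more positive (also at an unadjusted p under 0.05; edgeR and DESeq2 each called 1), against 19%. The values of the 10 members past a 2-fold difference were Bard1 at -1.16, Brca1 at -1.12, Exo1 at -1.09, Rad51c at -1.09, Rad54b at -1.05, Brca2 at -1.04, Fanci at -1.03, Blm at -1.03, Fancd2 at -1.03, Brip1 at -1.03. The next 7 were Rad54l at -0.96, Fanca at -0.94, Xrcc2 at -0.88, Palb2 at -0.87, Pms1 at -0.84, Msh6 at -0.83, Xrcc3 at -0.69. The remaining 7, of which 5 belong to the Fanconi core, were Pms2 at -0.63, Fancc at -0.61, Fancl at -0.60, Fancm at -0.60, Msh3 at -0.55, Fance at -0.43, Fancg at -0.40. With germ cell marker scaling 3 were more negative and 9 more positive, against 0.506% and 74.5% of all genes.

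The oxygen response also differed between the 2 wild-type lines, Hif1a line minus DBA/2, in 15 members, 12 lower against 30.9% of all genes and 3 higher against 15.1%. Strain, any difference in time and any sequencing set cannot be told apart here. With median-of-ratios scaling 4 were lower and 5 higher, against 19.8% and 21.1% of all genes, and DESeq2 on recovered reads called 2 lower and 4 higher. The 12 negative differences were Rad51b at -0.83, Xrcc2 at -0.46, Rad51d at -0.44, Fancf at -0.42, Fancb at -0.41, Bard1 at -0.41, Rad51c at -0.38, Rad54l at -0.35, Pms1 at -0.34, Fancd2 at -0.31, Fanci at -0.28, Pms2 at -0.25. The 3 positive differences were Brca1 at 0.23, Fanca at 0.26, Brca2 at 0.35. With 2 libraries a group, no library could be set apart from its group by a gap rule.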

How the results depend on the processing

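Counts of members called were within 1.5 times of those given with a pseudocount of 0.5. Scaling to equal germ cell markers moved the counts (higher, lower) to 11 and 4 in DBA/2, 6 and 10 in the labelled Hif1a KO oxygen comparison, 3 and 1 for the label at 20%, 12 and 2 for the label at 1%, 12 and 4 for Top1mt, 9 and 3 for the interaction and 19 and 0 between the lines at 20%, with 1 higher for the difference between lines' responses. In the same order, the shares of all genes were 44.9% and 12.6%, 73.9% and 6.47%, 34.3% and 0.453%, and 82.5% and 0.966%. They were 76.3% and 4.32% for Top1mt, 74.5% and 0.506% for the interaction and 57.3% and 6.07% between the lines at 20%. For the difference between lines' responses 10.6% of all genes were higher. It turned Fancd2 for the label at 20% to 0.0083 and, between the lines at 20%, Fancg to 0.074, Palb2 to 0.013 and Pms1 to 0.038. Median-of-ratios scaling gave 1 higher for the label at 1% and 1 for the interaction, as did edgeR and DESeq2 on recovered reads, and for the difference between lines' responses 5 higher and 4 lower (edgeR 5 and 5, DESeq2 2 lower). DESeq2 called 10 lower in the Hif1a line wild type. With no filter 0 members rose in the labelled Hif1a KO oxygen comparison, 1 fell for the label at 20% and 1 response was higher. With only the groups compared these were 0 risen and 5 fallen, and 9 fell between the lines at 20%. Rad51b turned in the labelled Hif1a KO oxygen comparison (median-of-ratios 0.023, germ cell markers 0.54, edgeR 0.021, DESeq2 0.055) and for the label at 1% (0.18, 0.83, 0.19, 0.23, and from -0.18 to 0.12 over the fits that left out 1 library). Apart from the construction of these settings, the cause was not tested. For DESeq2, the fit with no filter and the fit of only the groups compared, shares of all genes called are not given here.

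Leaving out 1 library gave 7 to 10 falls and 2 to 3 rises in DBA/2, 10 to 19 falls in the Hif1a line wild type, 26 falls and 0 to 1 rises in the labelled Hif1a KO comparison, 25 falls and 0 to 1 rises for the label at 1%, 1 to 5 falls for the label at 20%, 20 to 22 for Top1mt and 24 for the interaction. Between the lines it gave 2 to 5 lower and 0 to 3 higher at 20%, and 7 to 11 lower and 1 to 4 higher responses. An arm with 1 library was taken to vary like the others. Shares of all genes called in fits that left out 1 library are not given here. A shift of the members alone can therefore not be told from a shift of all calls.

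Replicate numbers were not used to pair the samples, and the labels do not state a pairing. Over 28 pairs of groups the correlation of same-numbered deviations ran from -0.206 to 0.274, with 5 over 0.1. The DBA/2 library names carry the same numbers at both oxygen levels, and there it was 0.153. Pairing can therefore not be excluded. With the replicate block 12 members fell in DBA/2, 17 in the Hif1a line wild type, 26 and 25 in the labelled Hif1a KO comparisons with 20% oxygen and with wild-type at 1%, and 24 for the interaction. Shares of all genes called with the block are not given here. Members at a few CPM, such as Rad51b, are limited by depth.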
